A study of Mus musculus with 4 samples.

Results

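The transcripts of glycolysis and of the pentose phosphate pathway were followed in Beko cells before and after removal of a γ-secretase inhibitor (GSI). Beko is a line of mouse T-cell progenitors in which the Notch pathway is always on, and γ-secretase is the protease that releases the active part of the Notch receptor. The genes were 40 symbols chosen by name, namely the sugar transporters, the enzymes of glycolysis and their PFKFB regulators, the lactate and pyruvate enzymes and carriers, and the enzymes of the pentose phosphate pathway. All 40 were present among the 24391 genes of the RNA-Seq count table, and 37 of them were among the 12266 genes with enough counts to be tested. Hk3, Pklr and Pdk4 were not tested, because Hk3 had between 0 and 2 counts per library, Pklr had between 0 and 5, and Pdk4 had 0 in all 4 libraries.

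RNA-Seq libraries were made from 2 samples kept in GSI and from 2 samples from which the GSI had been washed out. In the GSI group the cells were cultured with the inhibitor DAPT for 48 h, and the methods state that the inhibitor was renewed after the first day. In the washout group the cells received the same 48 h of DAPT, were then washed and were cultured for 24 h without it. The labels and the methods of the study give different units for the dose of DAPT, so no dose is given here. Both groups had therefore been exposed to GSI, and cells that were washed and cultured longer without ever having received the inhibitor were not analysed here. The removal of GSI and the additional day of culture cannot be told apart in this design. All libraries came from 1 cell line, and nothing in the labels says that the replicates came from separate cultures, so that the p-values measure only the spread between these samples, which may be technical.

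Glycolysis converts glucose into pyruvate in the cytosol, and lactate dehydrogenase and the pyruvate dehydrogenase complex compete for the pyruvate. The pentose phosphate pathway branches off at glucose 6-phosphate and delivers NADPH and ribose 5-phosphate, the sugar of nucleotides. Proliferating T cells and T-cell leukemias are known for a high rate of glycolysis, and several steps are carried out by alternative isozymes encoded by separate genes.

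The total count was 29671401 and 13716199 in the GSI libraries and 36364200 and 14451995 in the washout libraries. The first library was the deeper one in both groups, so differences by replicate and by depth cannot be told apart. Levels are given as CPM, the counts of a gene relative to the total of its library after scaling by the trimmed mean of M-values (TMM), and log2 CPM correlated with r = 0.990 between the GSI replicates and r = 0.988 between the washout replicates, and between 0.935 and 0.947 across the groups. The Notch target Dtx1, chosen outside the rule for named genes, was at 46.1 and 64.4 CPM in the GSI libraries and at 409.0 and 605.1 CPM in the washout libraries (adjusted p = 0.000396, quasi-likelihood test of edgeR, adjusted by Benjamini-Hochberg). Markers of progenitor T cells were all detected, with 17 of 17 tested and a summed level of 10700 and 10770 CPM under GSI against 9594 and 9285 CPM after washout. Of these markers 2 rose and 2 fell past both thresholds, and without Rag1, the highest of them, the sums were 8932 and 8402 CPM against 6828 and 6730 CPM. Markers of myeloid and mast cells summed to 323.6 and 204.9 CPM under GSI and to 51.2 and 35.4 CPM after washout, most of it from the mast cell protease Cpa3 and the receptor Kit, while Lyz2, Elane, S100a8 and S100a9 were at 0 in every library. Markers of B cells stayed below 1 CPM in sum, with Ms4a1, Pax5 and Ebf1 at 0. Erythroid markers summed to between 23.0 and 24.8 CPM under GSI and between 11.7 and 12.1 CPM after washout, with Hbb-b1 and Hba-a1 at 0. Fibroblast markers summed to between 45.2 and 47.6 CPM under GSI and between 27.9 and 36.5 CPM after washout, with Col3a1 and Dcn at 0. Nearly all of the fibroblast sum came from Pdgfrb, and without it the sums were 3.16 and 3.02 CPM against 1.38 and 1.56 CPM. The part of these shifts in the results on metabolic genes was not tested, and in bulk RNA fewer cells of a type and less RNA per cell cannot be told apart.

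Of the 37 tested glycolysis and pentose phosphate genes 29 had a positive log2 fold change after the washout, among them the hexokinase Hk2, the phosphoglycerate mutase Pgam1 and the lactate dehydrogenase Ldha, while the enolase Eno2 and the pyruvate dehydrogenase kinase Pdk2 had the most negative values. A gene was called when its adjusted p was under 0.05 in edgeR's quasi-likelihood test and its log2 fold change lay above 1 or below -1. Under this rule 7 of the 37 tested members rose (18.9%), where 7.74% of all genes tested rose, and 2 members fell (5.41%), where 11.7% of all genes fell. With the adjusted p alone, 17 members were higher (45.9%) against a background of 27.0%, 4 were lower (10.8%) against a background of 25.4%, and 16 did not pass. The median log2 fold change of the 37 members was 0.48, and that of all genes tested was -0.01. In 24 members both washout libraries lay above both GSI libraries, an order seen in 38.2% of all genes tested, and in 7 members both lay below, as in 39.1% of all genes. The 40 genes together held 0.841% and 0.826% of the counts in the GSI libraries and 0.952% and 1.19% in the washout libraries. The size of these numbers depended on single libraries. The median log2 fold change of the members was 0.36 without the second washout library, where that of all genes was 0.00. It was 0.59 without the second GSI library, where that of all genes was 0.01.

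The scaling of the libraries also mattered. With total counts in place of TMM, the median of all genes tested moved to -0.21 and that of the members to 0.28, and 3 members rose while 3 fell. Of all genes tested 586 then rose and 1963 fell, against 950 and 1437 with TMM. The median of the members thus stayed above that of all genes under both scalings. The signs of Hk1, Gpi1 and Pdha1, which passed no threshold, turned under the total counts, and those of the other 34 members did not. Corrected for GC content and length, 10 members rose and 2 fell, the additions being Eno1, Pkm and Slc2a1. This correction covered the 10963 tested genes with a known GC content, of which 943 rose and 1098 fell.

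**Figure D1:**
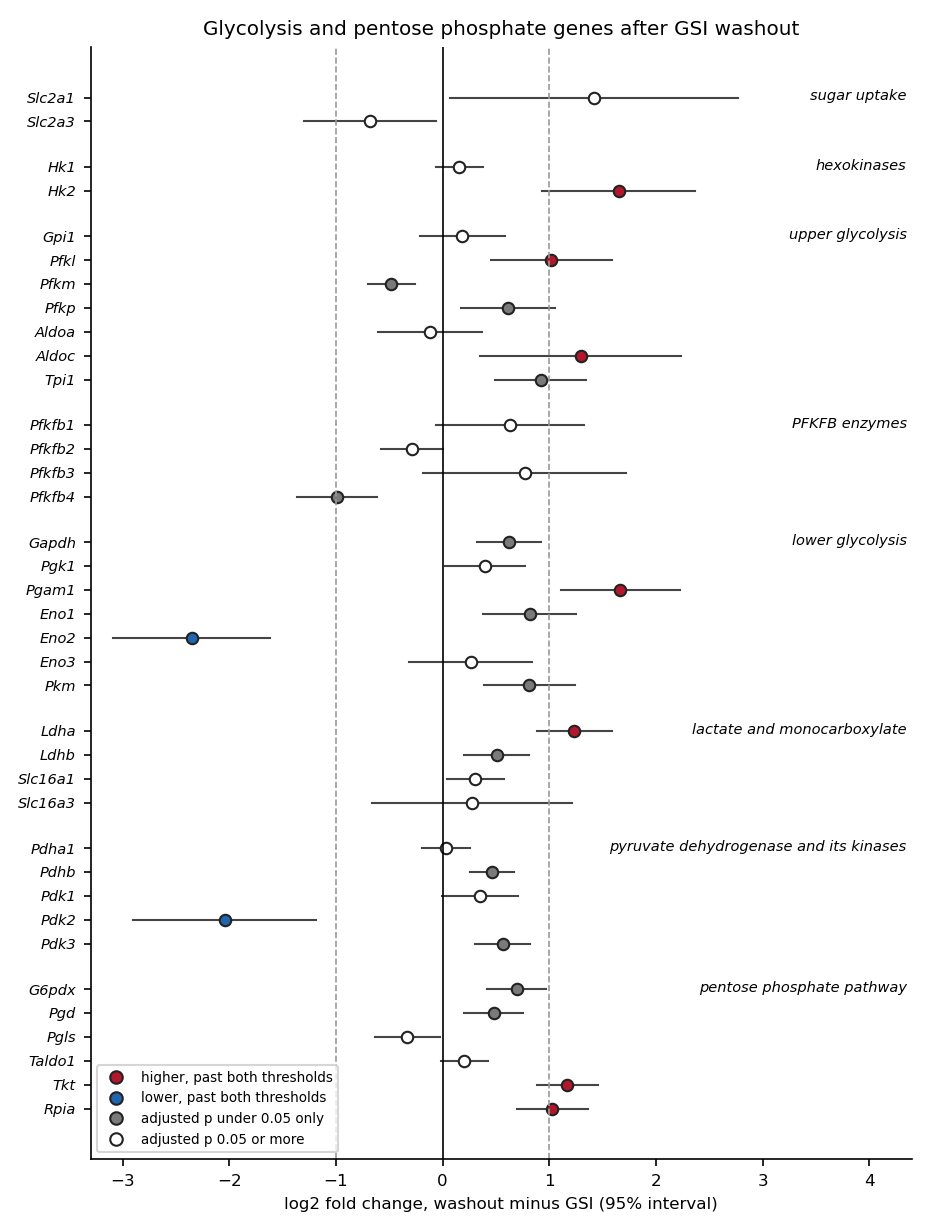
Log2 fold change of each tested member (points, x axis, washout minus GSI) with its 95% interval (lines), grouped by role; dashed lines mark a log2 fold change of -1 and 1. Most points lie right of 0, from Pgam1 at 1.66 downwards, and Eno2 at -2.35 and Pdk2 at -2.04 lie far to the left.

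To show the sequence at the start of members called in either direction, a promoter each of Hk2, Ldha, Pgam1, Pdk2 and Eno2, chosen after their values and motifs were known, is given as listed by RefSeq on GRCm38.p6, each from 250 bases before to 50 bases after a transcription start and in 5′ to 3′ direction on the strand of the gene. Capitals mark ACGTG, the core of the hypoxia response element, on either strand, so that a match on the opposite strand reads CACGT. The E-box CACGTG holds this core on both strands and counts as 2 matches.
Hk2 promoter, chr6:82774405-82774704, minus strand: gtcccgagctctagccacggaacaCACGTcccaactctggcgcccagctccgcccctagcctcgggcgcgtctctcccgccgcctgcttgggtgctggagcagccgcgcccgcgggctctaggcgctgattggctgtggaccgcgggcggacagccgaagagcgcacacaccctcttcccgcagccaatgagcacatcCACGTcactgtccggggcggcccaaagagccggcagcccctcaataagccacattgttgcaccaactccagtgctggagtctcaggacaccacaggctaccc
Ldha promoter, chr7:46845554-46845853, plus strand: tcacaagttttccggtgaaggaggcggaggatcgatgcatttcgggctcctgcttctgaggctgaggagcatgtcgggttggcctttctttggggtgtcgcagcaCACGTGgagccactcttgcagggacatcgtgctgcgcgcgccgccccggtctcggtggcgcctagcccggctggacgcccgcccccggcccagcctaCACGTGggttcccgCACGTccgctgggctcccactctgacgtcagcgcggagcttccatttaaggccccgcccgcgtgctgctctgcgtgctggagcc
Pgam1 promoter, chr19:41911621-41911920, plus strand: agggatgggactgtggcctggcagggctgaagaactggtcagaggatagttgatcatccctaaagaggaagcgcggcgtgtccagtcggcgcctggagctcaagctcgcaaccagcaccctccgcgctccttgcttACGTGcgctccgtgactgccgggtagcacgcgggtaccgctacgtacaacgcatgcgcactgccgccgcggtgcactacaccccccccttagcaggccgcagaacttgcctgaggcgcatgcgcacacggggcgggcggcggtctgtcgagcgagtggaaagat
Pdk2 promoter, chr11:95041322-95041621, minus strand: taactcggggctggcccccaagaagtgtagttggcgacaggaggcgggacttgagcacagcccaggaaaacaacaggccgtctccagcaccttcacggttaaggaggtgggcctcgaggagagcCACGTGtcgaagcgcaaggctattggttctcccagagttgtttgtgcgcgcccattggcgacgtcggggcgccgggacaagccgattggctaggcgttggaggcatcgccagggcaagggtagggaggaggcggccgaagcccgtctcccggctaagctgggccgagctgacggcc
Eno2 promoter, chr6:124769624-124769923, minus strand: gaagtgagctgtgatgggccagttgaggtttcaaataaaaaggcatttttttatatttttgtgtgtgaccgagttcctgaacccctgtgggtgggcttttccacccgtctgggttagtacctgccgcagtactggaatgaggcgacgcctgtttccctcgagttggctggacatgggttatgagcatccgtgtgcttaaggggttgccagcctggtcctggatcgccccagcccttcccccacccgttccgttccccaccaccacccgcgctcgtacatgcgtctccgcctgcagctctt

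The Ldha promoter shown held CACGTG at 2 positions and a further single core, that of Hk2 held the core at 2 positions, that of Pgam1 held it once, that of Pdk2 held a CACGTG, and that of Eno2 had 0 matches. RefSeq lists 2 promoters each for Ldha and Pdk2, and the motif-bearing one is shown. The other promoter of Ldha and that of Pdk2 held 0 matches to ACGTG. A promoter was listed for 39 members, the exception being Slc2a3, and all promoters of a gene were searched on both strands. ACGTG was found for 20 of the 39 members (51.3%), for 29.2% of the 9073 tested genes with a promoter and in 19.6% of all 32851 promoters. CACGTG was found for 6 members (15.4%) and for 11.7% of tested genes. Members had more listed promoters per gene than tested genes in general, so the shares were also taken per promoter, over 60 promoters of members and 11481 of tested genes. Per promoter ACGTG was in 24 of the 60 of members against 25.4% of those of tested genes, CACGTG in 10.0% against 9.93%, and the variant core GCGTG in 56.7% against 50.4%. TGGGAA, the motif bound by the Notch effector RBPJ, was in 15 of the 60 against 22.9%. Among the members called, ACGTG was found for 4 of the 7 that rose (Hk2, Aldoc, Pgam1 and Ldha) and for 1 of the 2 that fell (Pdk2). These are matches of letters in a window of 300 bases.

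At the entry of glucose into the cell, the transporter genes Slc2a1 and Slc2a3 pointed in opposite directions and neither passed the test. Slc2a1, encoding the widely expressed transporter GLUT1, had 12.1 and 27.7 CPM in the GSI libraries and 27.6 and 77.7 CPM in the washout libraries. The groups overlapped, as the second GSI library was level with the first washout library, and in both groups the second library was higher than the first. The log2 fold change was 1.42 (SE 0.56, 95% interval 0.07 to 2.77) with an adjusted p of 0.0743. It was 2.11 without the second GSI library (adjusted p = 0.0192) and 2.02 without the first washout library (adjusted p = 0.000883), but 0.90 without the first GSI library (adjusted p = 0.230) and 0.53 without the second washout library (adjusted p = 0.238). Slc2a3, encoding the high-affinity transporter GLUT3, had 35.9 and 35.0 CPM under GSI and 16.3 and 28.9 CPM after washout, with a log2 fold change of -0.68 and an adjusted p of 0.0642. Without the second washout library the value for Slc2a3 was -1.11 with an adjusted p of 0.000253, and without the first washout library it was -0.29 with an adjusted p of 0.122. Per transcript length, in RPKM (CPM divided by the exon length in kb), Slc2a1 made up 46.1% and 66.8% of the summed level of the 2 transporters in GSI and 81.1% and 87.2% after washout.

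Hexokinases phosphorylate glucose and so commit it to metabolism in the cell. Hk2 (mm9, chromosome 6, 82675019 to 82724448, minus strand), the inducible isozyme bound to mitochondria, had 27.3 and 28.1 CPM in the GSI libraries and 59.7 and 115.6 CPM in the washout libraries. Both washout libraries lay clearly above the GSI libraries, but they differed from each other much more than the GSI libraries did. The log2 fold change of Hk2 was 1.65 (SE 0.30, adjusted p = 0.00485). Hk1, the constitutive isozyme, stood at 166.3 and 170.2 CPM under GSI and at 182.4 and 193.0 CPM after washout, with a log2 fold change of 0.16, an interval of -0.07 to 0.38 and an adjusted p of 0.197. Corrected for GC content and length, the value of Hk1 was 0.62 with an adjusted p of 0.000747. Hk1 remained the most abundant hexokinase transcript in every library, yet the share of Hk2 in the hexokinase RPKM was 19.0% and 19.1% in GSI and 31.9% and 46.1% after washout. The summed hexokinase RPKM was 24.1 and 24.7 in GSI and 31.4 and 42.0 after washout. Hk3 was at or below the detection limit of 3 counts in every library.

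In the upper part of glycolysis, from glucose 6-phosphate to the triose phosphates, 2 of 7 members passed both thresholds and both rose (28.6%). Of all genes 7.74% rose. Pfkl (mm9, chromosome 10, 77449692 to 77472828, minus strand), the liver-type phosphofructokinase of the rate-controlling step, had 179.4 and 237.3 CPM under GSI and 332.0 and 513.1 CPM after washout. Its log2 fold change was 1.02 (SE 0.23, adjusted p = 0.0123), just past the threshold. Without the first GSI library it was 0.83 (adjusted p = 0.0551) and without the second washout library 0.69 (adjusted p = 0.00634), so that the call of Pfkl rested on these libraries. Pfkm, the muscle-type subunit, moved in the opposite direction, from 204.4 and 199.7 CPM to 147.9 and 141.9 CPM, with a log2 fold change of -0.48 (SE 0.09, adjusted p = 0.00607). Pfkp, the platelet-type subunit, had a log2 fold change of 0.61 (adjusted p = 0.0302).

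The composition of phosphofructokinase transcripts thereby differed between the groups. Per length, Pfkm was the most abundant of the 3 in GSI, with 57.6% and 50.7% of their summed RPKM. After washout it was Pfkl, with 55.8% and 65.0%. The lead of Pfkm in GSI depended on the exon lengths. In CPM Pfkm had 44.0% and 37.9% in GSI, and Pfkl had 38.6% and 45.0%. Pfkp was between 7.36% and 9.17% of the RPKM and between 17.1% and 19.1% of the CPM in all libraries.

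Aldoc (mm9, chromosome 11, 78136470 to 78141283, plus strand), the brain-type aldolase, was a rare transcript with 17 and 13 counts in GSI and 59 and 21 counts after washout, corresponding to 0.531 and 0.891 CPM against 1.73 and 1.56 CPM. Its log2 fold change was 1.29 (SE 0.39, adjusted p = 0.0317), and its adjusted p was between 0.0597 and 0.231 when the first GSI library or either washout library was left out. It accounted for less than 0.2% of the aldolase RPKM in every library. The abundant aldolase Aldoa was at 1148 and 982.0 CPM under GSI and 800.5 and 1163 CPM after washout, and the groups overlapped (log2 fold change -0.12, interval -0.60 to 0.37). Tpi1, which interconverts the triose phosphates, was higher with 272.2 and 300.9 CPM under GSI and 452.1 and 633.1 CPM after washout (log2 fold change 0.92, adjusted p = 0.00619), and exceeded the fold threshold without the second GSI library (log2 fold change 1.01, adjusted p = 0.0146) or the first washout library (1.15, adjusted p = 0.000150). Gpi1, the glucose 6-phosphate isomerase, had a log2 fold change of 0.18 and overlapping libraries.

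The PFKFB enzymes make and remove fructose 2,6-bisphosphate, the activator of phosphofructokinase, and Pfkfb4 was the only 1 of the 4 genes to pass the adjusted p. It was at 22.9 and 24.5 CPM under GSI and at 10.8 and 13.2 CPM after washout, with a log2 fold change of -0.99 (SE 0.15, adjusted p = 0.00282), and the fold threshold was passed without the first GSI library (-1.04) or the second washout library (-1.12). Pfkfb3, the isozyme with the highest kinase activity, was at 27.8 and 39.1 CPM under GSI and 34.1 and 80.7 CPM after washout, with overlapping groups, a log2 fold change of 0.77 (interval -0.18 to 1.72) and an adjusted p of 0.147. Leaving out the first washout library gave 1.29 for Pfkfb3 with an adjusted p of 0.000375, and leaving out the second gave 0.0557 with an adjusted p of 0.833. Pfkfb1 and Pfkfb2 had log2 fold changes of 0.63 and -0.29 and did not pass the test. In the summed RPKM of the 4 genes Pfkfb4 was the largest part in GSI with 44.4% and 40.3%, and Pfkfb3 after washout with 46.4% and 66.0%. The sum itself overlapped between the groups, with 12.5 and 14.7 in GSI and 10.4 and 17.4 after washout. The order in GSI depended on the exon lengths. In CPM Pfkfb3 was the largest part in both groups, with 35.5% and 41.8% in GSI, where Pfkfb4 had 29.2% and 26.1%.

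**Figure D2:**
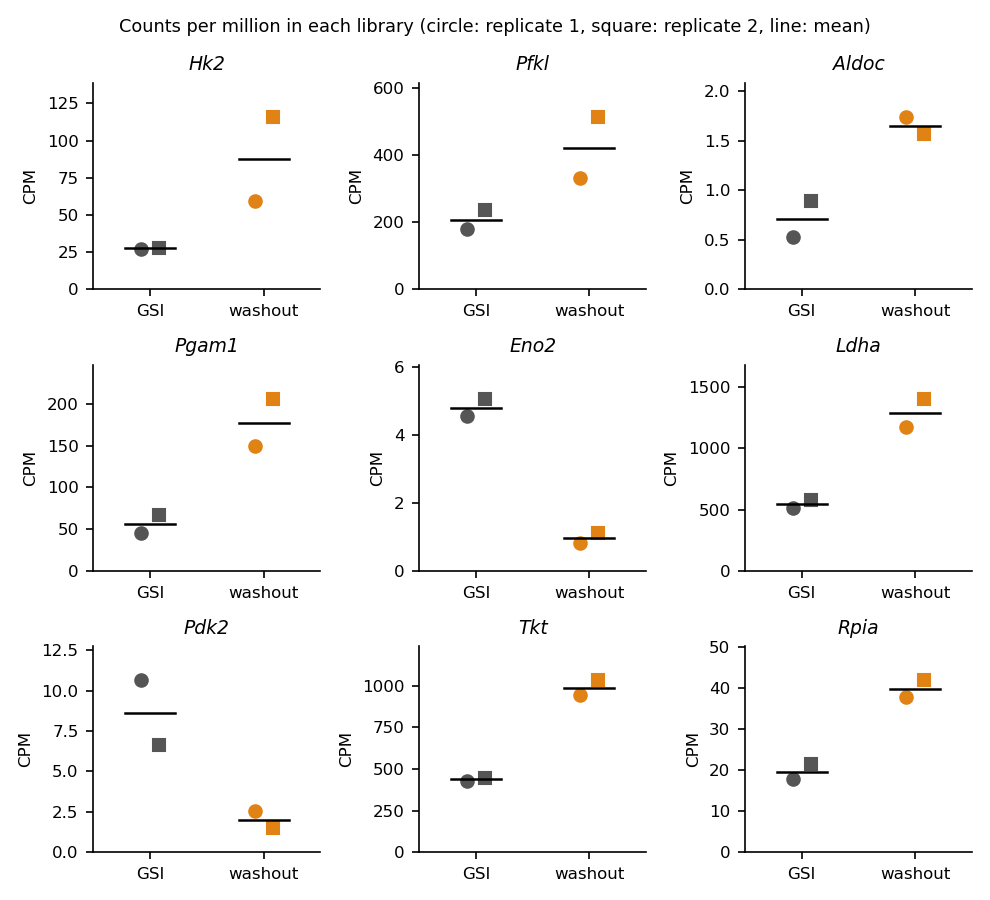
CPM (y axis, each panel with its own scale from 0) of the 9 members past both thresholds, with 1 symbol per library (circle replicate 1, square replicate 2) and a line at the group mean. The washout libraries lie above the GSI libraries in 7 panels, with the largest ratio between washout replicates for Hk2 (59.7 and 115.6 CPM), and below them for Eno2 and Pdk2.

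In the lower part of glycolysis, which yields ATP and pyruvate, 4 of 7 tested members were higher by the adjusted p (57.1%) and 1 was lower (14.3%). Of all genes 27.0% were higher and 25.4% lower. Pgam1 (mm9, chromosome 19, 41986361 to 41993154, plus strand), the phosphoglycerate mutase, had the largest log2 fold change of all members. It had 45.3 and 67.4 CPM under GSI and 149.4 and 206.2 CPM after washout, a log2 fold change of 1.66 (SE 0.23, adjusted p = 0.00188). Of the 31-base words in its exons, 94.1% also occur elsewhere in the mm9 genome, and with 1 alignment kept per read its level is uncertain. The same holds for Pgk1 with 94.0%, Gapdh with 79.96%, Pkm with 63.5%, Eno1 with 53.5% and Pdhb with 52.9%. Smaller shares were found for Gpi1 (49.3%), Ldhb (43.5%), Ldha (42.8%), Tpi1 (35.4%), Aldoa (28.7%) and Taldo1 (27.5%). Across the members, 12 had more than 20% of such words, with a median log2 fold change of 0.56, and the other 25 had a median of 0.35.

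Eno2 (mm9, chromosome 6, 124710071 to 124719691, minus strand), the neuron-type enolase, had the lowest log2 fold change of the members. It had 146 and 74 counts in GSI and 28 and 15 after washout, which correspond to 4.56 and 5.07 CPM against 0.823 and 1.12 CPM. The log2 fold change was -2.35 (SE 0.30, adjusted p = 0.00148), a 4.97-fold lower mean after washout. Eno1, the general enolase, moved in the opposite direction with 153.9 and 160.8 CPM under GSI and 226.0 and 329.0 CPM after washout (log2 fold change 0.82, adjusted p = 0.0107). Eno3, the muscle-type enolase, was at 7.44 and 7.27 CPM under GSI and 7.23 and 10.7 CPM after washout, with overlapping groups and an adjusted p of 0.385. Per transcript length Eno1 made up 84.2% and 84.8% of enolase in GSI and 90.4% and 90.3% after washout, and Eno2 fell from a share of 2.85% and 3.06% to 0.376% and 0.350%.

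Pkm, the pyruvate kinase, was the most abundant member per length in both groups. Its level was 563.3 ± 16.9 RPKM (SD, n = 2) in GSI and 990.9 ± 200.2 RPKM (SD, n = 2) after washout, with 1318 and 1375 CPM against 2031 and 2708 CPM in the single libraries (log2 fold change 0.81, adjusted p = 0.00973). Without the first washout library the log2 fold changes of Pkm and Eno1 were 1.01 and 1.07, past the fold threshold, and without the second they were 0.61 and 0.54. The adjusted p of Pkm was 0.0625 without the first GSI library. Gapdh had a log2 fold change of 0.62 (adjusted p = 0.00722), and Pgk1, the phosphoglycerate kinase, had 0.40 with an adjusted p of 0.0719 although its washout libraries lay above the GSI libraries. In GSI the order of RPKM after Pkm was Aldoa (386.7 ± 42.6), Pgk1 (209.9 ± 27.7), Ldha (183.0 ± 15.9) and Gpi1 (158.1 ± 13.4). Ldha differed from Pgk1 and from Gpi1 by less than the sum of the 2 SDs (n = 2), and Pgk1 differed from Gpi1 by more. After washout the order was Ldha (431.0 ± 54.9), Aldoa (356.5 ± 93.1), Pgk1 (277.0 ± 41.6) and Tpi1 (245.6 ± 57.9), where neighbours did not differ beyond their spread (n = 2).

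Pyruvate is reduced to lactate by lactate dehydrogenase, and lactate leaves the cell through monocarboxylate transporters. Ldha (mm9, chromosome 7, 54096845 to 54110997, plus strand), encoding the subunit that favours lactate formation, had 512.1 and 579.2 CPM under GSI and 1169 and 1401 CPM after washout. The difference was far larger than that between replicates, with a log2 fold change of 1.24 (SE 0.15, adjusted p = 0.00110), and 42.8% of its 31-base words occur elsewhere in the genome. Ldhb, encoding the subunit typical of heart, was also higher with 150.2 and 171.4 CPM under GSI and 208.3 and 248.3 CPM after washout (log2 fold change 0.51, adjusted p = 0.0171). The share of Ldha in the RPKM of both was 64.2% and 64.0% in GSI and 74.7% and 74.8% after washout, and the replicates differed by far less than the groups. The transporter gene Slc16a1 was at 576.7 and 538.4 CPM under GSI and 706.3 and 673.2 CPM after washout without passing the test (log2 fold change 0.31, interval 0.04 to 0.58, adjusted p = 0.0584). Slc16a3, whose product exports lactate, overlapped between the groups with 14.3 and 21.7 CPM against 13.7 and 30.3 CPM (log2 fold change 0.28, adjusted p = 0.579).

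The pyruvate dehydrogenase complex feeds pyruvate into the mitochondrial cycle and is switched off by the PDK kinases. Pdk2 (mm9, chromosome 11, 94887572 to 94902668, minus strand) had 340 and 97 counts in GSI and 87 and 20 after washout, or 10.6 and 6.65 CPM against 2.56 and 1.49 CPM. The groups did not overlap, and the first library was the higher one in both. The log2 fold change was -2.04 (SE 0.35, adjusted p = 0.00433), a 4.27-fold lower mean. Pdk3 was higher with 40.4 and 44.0 CPM under GSI and 59.1 and 65.8 CPM after washout (log2 fold change 0.57, adjusted p = 0.00600). Pdk1, the most abundant of these kinase transcripts with between 58.8% and 62.9% of their RPKM in every library, had a log2 fold change of 0.35 and an adjusted p of 0.0903. Pdk2 was therefore a small part of the kinase transcripts, with 7.22% and 4.05% in GSI and 1.39% and 0.687% after washout.

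The subunits of the enzyme itself differed less. Pdha1 was at 243.8 and 237.2 CPM under GSI and 247.1 and 245.5 CPM after washout, and the interval of its log2 fold change ran from -0.19 to 0.26. Pdhb was at 98.1 and 99.2 CPM against 134.6 and 137.5 CPM (log2 fold change 0.46, adjusted p = 0.00572). The ratio of Ldha to Pdha1 per length was 2.66 and 3.09 in GSI and 5.99 and 7.22 after washout.

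**Figure D3:**
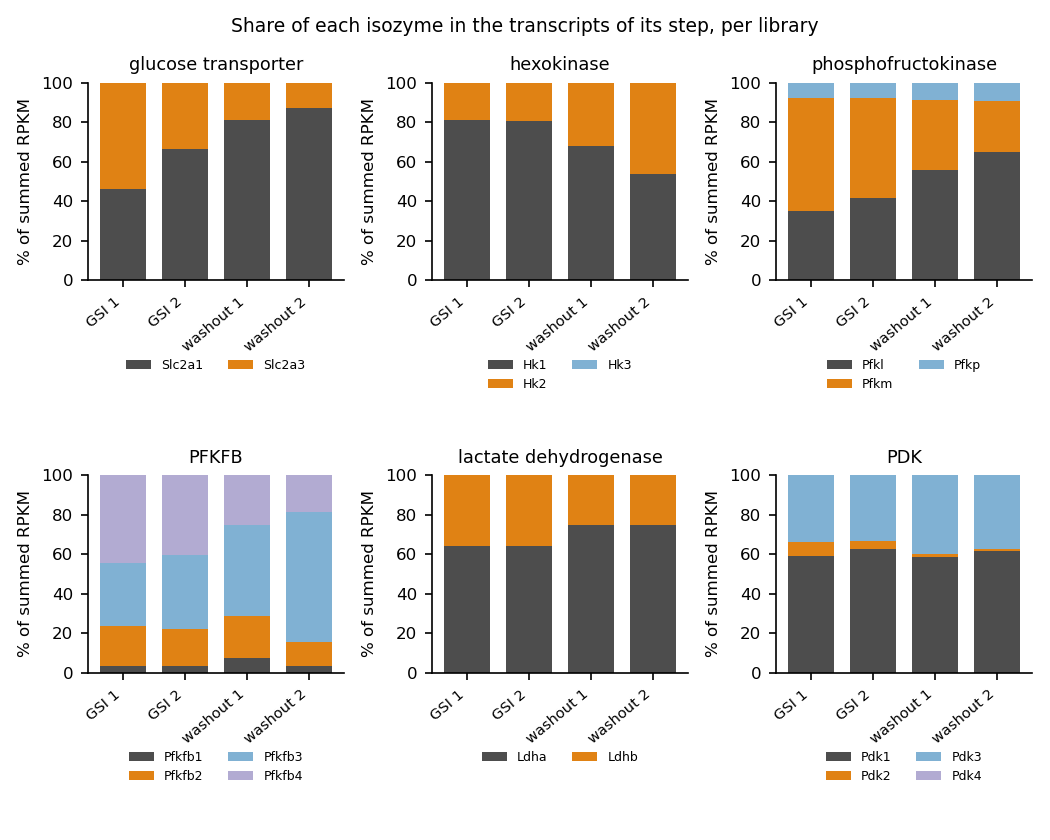
Share of each isozyme (stacked bars, % of the summed RPKM of the step, y axis) in each of the 4 libraries for 6 steps. Hk2, Pfkl, Pfkfb3, Ldha and Slc2a1 take larger shares in both washout libraries than in both GSI libraries, for example Hk2 with 31.9% and 46.1% against 19.0% and 19.1%.

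In the pentose phosphate pathway, 4 of 6 genes were higher by the adjusted p (66.7%), where 27.0% of all genes were. Of these, 2 passed both thresholds (33.3% of the 6), where 7.74% of all genes rose. Tkt (mm9, chromosome 14, 31361545 to 31387908, plus strand), the transketolase of the non-oxidative branch, had 429.4 and 447.0 CPM under GSI and 940.9 and 1031 CPM after washout. It had the lowest adjusted p of all members, with a log2 fold change of 1.17 (SE 0.12, adjusted p = 0.000682). Part of its exons overlaps another annotated gene on the same strand, AC154646.1, so that reads there may belong to either. Rpia (mm9, chromosome 6, 70715714 to 70742226, minus strand), the isomerase that makes ribose 5-phosphate, had 17.8 and 21.4 CPM under GSI and 37.8 and 41.8 CPM after washout, with a log2 fold change of 1.03 (SE 0.14, adjusted p = 0.00160). Without the first GSI library its log2 fold change was 0.89, and without the second washout library 0.98, both below the fold threshold.

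The genes of the oxidative branch and Taldo1 did not reach the fold threshold. G6pdx, the glucose 6-phosphate dehydrogenase that opens the pathway, was at 38.1 and 37.6 CPM under GSI and 56.4 and 66.4 CPM after washout (log2 fold change 0.69, adjusted p = 0.00362). Pgd, which makes the second NADPH of the branch, had a log2 fold change of 0.48 (adjusted p = 0.0139). Pgls, the lactonase between them, was at 145.0 and 130.2 CPM under GSI and 99.0 and 120.5 CPM after washout, with a log2 fold change of -0.33 and an adjusted p of 0.0669. Taldo1, the transaldolase of the non-oxidative branch, had a log2 fold change of 0.20 (interval -0.02 to 0.42), and its value was 0.00 when the libraries were scaled by total counts. Summed over the 6 genes the level was 861.1 and 866.6 CPM under GSI and 1403 and 1539 CPM after washout, with Tkt as the largest part.

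The isozyme shares are descriptions and were not tested. Replicates differed in a way that touches several members, as Slc2a1 and Slc16a3 were higher in the second library by more than 0.5 on the log2 scale in both groups, and Pdk2 was lower. Such a repeated difference was seen upwards in 2.11% and downwards in 2.73% of all genes. Between the washout libraries alone the second was higher by 1.49 for Slc2a1, 1.24 for Pfkfb3, 1.14 for Slc16a3 and 0.95 for Hk2, again on the log2 scale.

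Of 36 tested genes of sugar handling outside the 40, 4 rose (11.1%) and 6 fell (16.7%) past both thresholds, where 7.74% and 11.7% of all genes did, with a median log2 fold change of -0.08. Fbp1, the fructose 1,6-bisphosphatase of gluconeogenesis, had 13.8 and 17.1 CPM under GSI and 56.5 and 64.1 CPM after washout (log2 fold change 1.98, adjusted p = 0.000347). Prps1, which turns ribose 5-phosphate into the precursor of nucleotides, rose by 1.52, and the ADP-dependent glucokinase Adpgk and the mitochondrial Pck2 by 1.23 and 1.21. The transketolase-like Tktl1 fell by 3.91, with 81 and 16 counts in GSI and 6 and 0 after washout, and the cytosolic Pck1 fell by 3.79, with 109 and 50 against 11 and 1 counts. Ldhd, Slc2a6, Slc2a8 and Pgam2 fell by 2.27, 1.54, 1.24 and 1.02, in the order named. Leaving out single libraries ended 3 of these calls. The adjusted p of Slc2a6 was between 0.0879 and 0.295 without either GSI library or the first washout library, the log2 fold change of Pgam2 was -0.89 without the first GSI library and -0.99 without the first washout library, and that of Pck2 was 0.94 without the second washout library.

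Pyruvate from glycolysis enters the mitochondrial cycle. Of 28 genes of pyruvate entry and the tricarboxylic acid cycle, 19 were higher by the adjusted p alone (67.9%), where 27.0% of all genes were, and the median log2 fold change was 0.55. Only the succinyl-CoA ligase subunit Suclg2 passed both thresholds, with 34.7 and 34.6 CPM under GSI and 79.0 and 71.1 CPM after washout (log2 fold change 1.12, adjusted p = 0.000537).

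Of the hypoxia-inducible genes outside glycolysis, 1 of 20 tested rose and 4 of 20 fell past both thresholds, where 7.74% and 11.7% of all genes did. Fam162a rose with a log2 fold change of 1.28, while Car9, Cited2 and Adm were among those that fell, by 1.51, 1.38 and 1.10, and the median was -0.14. The sign of this median depended on single libraries. It was 0.15 without the second GSI library and 0.02 without the first washout library. Without the first GSI library it was -0.10, and without the second washout library -0.35. The call of Car9 ended without the first GSI or the first washout library, and that of Adm without either GSI library or the first washout library, with an adjusted p between 0.0516 and 0.257 in these cases. Hif1a, encoding the oxygen-regulated subunit of the hypoxia-inducible factor, was at 376.5 and 327.0 CPM under GSI and 402.6 and 326.0 CPM after washout (log2 fold change 0.05, interval -0.29 to 0.39).

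Among 22 tested regulators of glycolytic genes, Trp53 rose and Txnip fell past both thresholds (4.55% each), where 7.74% of all genes rose and 11.7% fell. By the adjusted p alone 4 regulators were higher (18.2%) and 7 lower (31.8%), against 27.0% and 25.4% of all genes. Txnip, whose product limits glucose uptake, had 1719 and 1426 CPM under GSI and 143.6 and 115.3 CPM after washout, a log2 fold change of -3.60 (SE 0.18, adjusted p = 0.000281). Trp53 had 42.4 and 50.6 CPM against 97.2 and 108.0 CPM (log2 fold change 1.14, adjusted p = 0.000806). Myc, an activator of many glycolytic genes, had 156.8 and 152.2 CPM under GSI and 283.3 and 333.6 CPM after washout, with a log2 fold change of 0.997 that fell just short of the threshold (interval 0.72 to 1.27, adjusted p = 0.00102), and exceeded it without the first GSI library (1.01) or the first washout library (1.12).

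**Figure D4:**
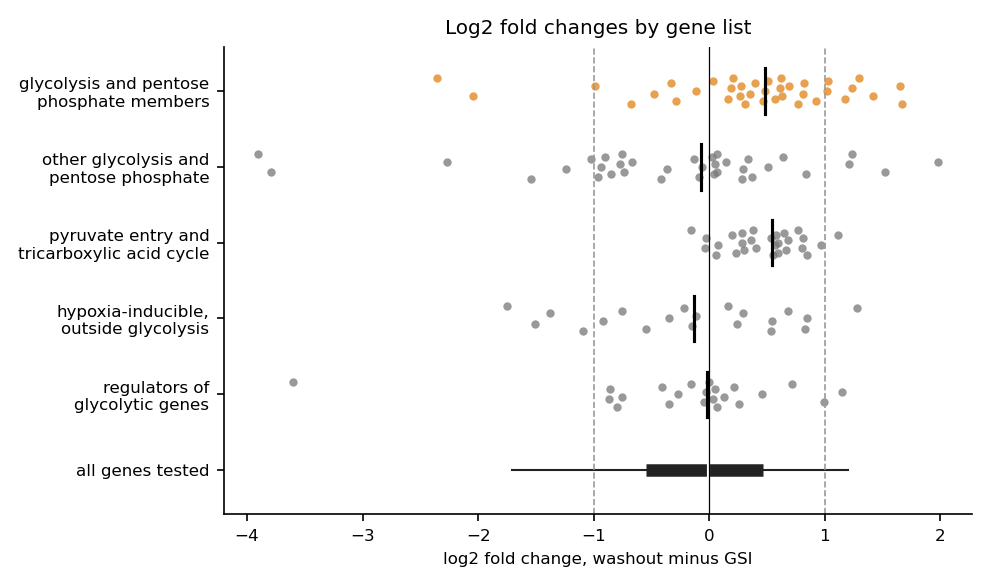
Log2 fold changes (x axis, washout minus GSI) of the tested genes of each list, with 1 point per gene and a vertical bar at the median; the row for all genes tested shows the middle 50% as a box and the 5th to 95th percentile as a line. The members (median 0.48) and the genes of pyruvate entry and the tricarboxylic acid cycle (median 0.55) lie to the right of all genes (median -0.01), and the other lists do not.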

How the data were processed

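The data were 4 RNA-Seq libraries of Beko cells, 2 under GSI and 2 after washout. The table deposited by the authors holds unnormalized counts for each gene. The authors aligned trimmed reads to mm9 with HISAT2 2.2.1 (1 alignment per read, introns up to 3000 bp) and counted them with summarizeOverlaps over the iGenomes annotation. The submitters' processing notes also name DESeq2 1.24.0. The strand setting of the counting is not given in the sources used here, although the library kit was stranded. Exons of 12 tested members overlap another annotated gene, those of Tkt and Pgls on the same strand and the others on the opposite strand. Reads there may belong to either gene. Among the tested members, 26 have an intron over 3000 bp, and reads spliced across it could not be aligned as such.

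The groups were compared by edgeR 4.0.16 under R 4.3.3 (filterByExpr, TMM, quasi-likelihood test, no covariates), with Benjamini-Hochberg adjustment over the 12266 genes tested. The thresholds were an adjusted p of 0.05 and a log2 fold change of 1, as in the study. The SE of a log2 fold change is its size over the root of its F statistic. CPM are TMM-scaled. RPKM used exon lengths of GENCODE vM1, in which 20641 of 24391 symbols matched a gene (39 members, and Pkm through an older symbol). Intervals and the floor of 3 counts cover counting error or the spread between these libraries only. On simulated counts with 2 against 2 libraries for this comparison (12165 genes), edgeR was judged by the adjusted p alone. It recovered 89 of 100 genes changed by 1.5 and 51 of 100 changed by 0.7 on the log2 scale, with 21 false calls. Far fewer genes changed in the simulation than passed the adjusted p in the data. These rates therefore need not hold for the data, nor for calls that also use the fold threshold.

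Members and lists were chosen with earlier results of these data known. Every member is accounted for, with values per library for those past both thresholds and for the highest and lowest of each role. Of the other lists, genes past both thresholds are named (at most 6), and also Hif1a, Myc and Txnip, while 1 further gene is not reported here. Alternatives were DESeq2 1.42.0, other size factors, other filters, thinned counts, a GC content and length correction, a replicate block, a test against the fold threshold, and leaving out each library.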

Additional observations from a re-analysis of the deposited data

How the results depend on the processing

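Under the 15 alternatives Eno2 kept its call in every one, and Hk2, Pgam1, Ldha and Pdk2 lost theirs only in the test against a log2 fold change of 1 (glmTreat). Tkt lost its call in 2, Rpia in 5, and Pfkl and Aldoc in 6 each. The replicate numbers are not stated to pair the samples. Across the genes tested, the difference in log2 CPM between replicates 1 and 2 under GSI correlated with that after washout (r = 0.497). With a replicate block 7 members rose and 2 fell past both thresholds, with Slc2a1 in place of Pfkl (log2 fold change 0.999). By the adjusted p alone 24 members were higher and 7 lower. The counts over all genes grew too, with 4243 higher and 4216 lower by the adjusted p alone, against 3315 and 3120 without the block. Past both thresholds 981 of all genes rose and 1576 fell with the block. The block did not change which other members passed both thresholds. By the adjusted p alone, thinned counts with the block gave 7 members lower, where 4006 of all genes were lower. The GC content and length correction with the block gave 26 members higher, where 4466 of all genes were higher.

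With total counts, 3 members rose past both thresholds and 7 were lower by the adjusted p alone, the median of the members was 0.28, and of all genes 586 rose and 1963 fell (23.0% of calls higher, against 39.8% with TMM). In the other sugar genes 10 then fell and the median was -0.27, among the genes after glycolysis 0 rose and the median was 0.35, and among the regulators 0 rose, 3 fell and the median was -0.22. The test against the threshold called 0 members higher and 1 lower, 308 and 501 of all genes, 2 and 1 of the other sugar genes, and 0 genes higher among those after glycolysis, 0 and 0 among the hypoxia-inducible genes and 0 higher among the regulators.

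The GC content and length correction gave medians of 0.0175 for the other sugar genes (0.0161 with the block), 0.43 for the genes after glycolysis (0.42 with the block) and 0.0721 for the regulators (0.0841 with the block), called 0 genes after glycolysis and 2 regulators higher with and without the block, and 0 hypoxia-inducible genes higher with it. Without a filter beyond 1 count 2 genes after glycolysis and 2 regulators rose. DESeq2 called 2 regulators higher and 2 hypoxia-inducible genes lower, as did a minimum of 10 counts and thinning for the latter with 2 each.

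Leaving out single libraries gave between 4 and 11 members higher and 2 to 4 lower, and 9 to 21 higher by the adjusted p alone. The median of the other sugar genes was between -0.17 and 0.0359 and that of the regulators between -0.0932 and -0.0385. The median of the genes after glycolysis was between 0.50 and 0.57, and that of the hypoxia-inducible genes between -0.35 and 0.15. In CPM in place of RPKM the share differences were -14.4 points for Pfkfb4, 3.73 for Eno1, -1.22 for Eno3, 7.66 for Ldha, -7.66 for Ldhb and 2.47 for Pdk3. The cause of these shifts was not tested. No called member changed its sign. Thinning every library to the smallest left all 9 calls in place, and each group has 2 libraries.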
